A study of Mus musculus with 5 samples.

Results

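Osteopontin and genes of bone matrix were followed across mouse sarcomas and resting muscle. The members were 9 of the 28001 genes in the count matrices, namely Spp1, Dmp1, Ibsp, Mepe, Alpl, Runx2, Sparc, Cd44 and Postn, and all 9 were present in every matrix. They were chosen by name, and partly because Spp1 had been seen to stand above muscle in these same libraries, so the levels in sarcoma cells beside those in muscle cells are a description and carry no test. Unique molecular identifiers (UMIs) are tags that mark each captured RNA molecule, and levels are given as CPM, the UMIs of a gene scaled to the total UMIs of the same cells. All values come from tags at the 3′ ends of transcripts.

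Bone forms when osteoblasts lay down a collagen-rich matrix that is then mineralised. Osteopontin (Spp1), dentin matrix protein (Dmp1), bone sialoprotein (Ibsp) and matrix extracellular phosphoglycoprotein (Mepe) are acidic secreted phosphoproteins of a shared gene cluster that bind mineral and, through an RGD motif, integrins. Tissue-nonspecific alkaline phosphatase (Alpl) frees phosphate for mineral, Runx2 is the transcription factor that osteoblasts depend on, Sparc (osteonectin) and Postn (periostin) are matricellular proteins that bind collagen, and Cd44 is a cell-surface receptor for hyaluronan and osteopontin. Outside bone, osteopontin is known as a cytokine of macrophages, of wound stroma and of many tumours.

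The study sorted tdTomato-labelled cells by flow cytometry and profiled them by droplet single-cell RNA sequencing. The sarcoma group held 4 libraries of tumours at endpoint from Hic1CreERT2/CreERT2;Rosa26LSLtdTomato/LSLtdTomato;Smarcb1FL/FL mice, taken from the shoulder (sarcoma 1), the head (sarcoma 2), the head and ear (sarcoma 3) and the hip (sarcoma 4). The muscle group held 1 library of resting hindlimb mesenchymal progenitors from Hic1CreERT2/CreERT2;Rosa26LSLtdTomato/+ mice. All mice were C57BL/6J and were given 2.5 mg tamoxifen in 100 µL of oil on each of 5 days at 8 weeks of age, followed by 10 days without treatment. Both groups therefore carried the tamoxifen-inducible Cre at both copies of Hic1, a gene active in mesenchymal progenitors and mural cells, and muscle differed from the sarcomas in Smarcb1 genotype, in the number of reporter alleles, in body site and in tumour state at once. Nothing in the labels ties the 4 sarcomas to different animals, and p-values thus measure only the spread between tumour samples, part of which may be technical. A single muscle library was used, and differences from it have no replicate check on that side.

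Cells were assigned to classes by raw UMIs. Sarcoma cells held at least 2 UMIs of Gchfr, a gene with 413 to 1689 CPM in these cells and 0.174 in muscle, and none of Smarcb1. Stroma held at least 4 UMIs over Ddah1, Wisp1, C1qtnf7 and Fbn2. The Gchfr level in sarcoma cells follows in part from their gate, and Gchfr was not absent from stroma. Stroma cells without a Dmp1 UMI held 48.1, 116, 34.5 and 5.92 CPM of Gchfr in sarcomas 1 to 4. Among 7433, 8206, 6949 and 6824 kept cells of sarcomas 1 to 4, the gates took 5142, 7423, 2851 and 3265 sarcoma cells and 184, 156, 1732 and 79 stroma cells, with 40, 24, 63 and 91 cells that met both gates left out of both. All 8107 kept muscle cells were used together, of which 175 met the stroma gate and 0 the sarcoma gate. Median depth per kept cell was 20005 to 28658 UMIs in the sarcomas and 7566 UMIs in muscle, and library totals were 151903246 to 213271163 and 64061069 UMIs. Each pair of libraries shared 12 to 22 cell barcodes.

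The stroma class of sarcoma 4 went against its name. Smarcb1 stood at 45.1, 66.4 and 59.8 CPM in the stroma of sarcomas 1 to 3 and at 9.75 in that of sarcoma 4, against 88.7 in muscle. Dcn, the fibroblast proteoglycan decorin, stood at 3107, 3755 and 6649 in the stroma of sarcomas 1 to 3 and at 392 in that of sarcoma 4, against 16780 in muscle. The summed level of 8 progenitor and fibroblast markers was 28576, 37150 and 45425 in sarcomas 1 to 3 and 3769 in sarcoma 4, which is close to the 2275 in the sarcoma cells of that library. Tests that rest on this stroma are therefore given with and without sarcoma 4. Markers of bone-forming cells (Bglap, Bglap2, Sp7, Phex, Sost and Dlx5) summed to 18.8, 52.5, 5.48 and 18.5 CPM in sarcoma cells. The sum was 15.4, 9.36, 13.9 and 20.5 in stroma and 6.32 in muscle, and was thus low in every class. Of these, Sp7 stood at 18.3, 42.6, 3.03 and 13.3 in sarcoma cells, 8.04, 2.11, 0.0750 and 8.36 in stroma and 0.142 in muscle. In sarcoma cells Dlx5 stood below muscle in all 4 libraries, and no marker but Sp7 stood above muscle in all 4.

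Spp1, Dmp1, Ibsp and Mepe lie within 1 cluster on mouse chromosome 5 (GRCm38), all on the plus strand, in the order Dspp, Dmp1, Ibsp, Mepe, Spp1, Pkd2. Dmp1 spans chr5:104202613-104214102, Ibsp chr5:104299171-104311469, Mepe chr5:104325329-104338611 and Spp1 chr5:104435118-104441050. The intergenic gaps are 85.1 kb between Dmp1 and Ibsp, 13.9 kb between Ibsp and Mepe and 96.5 kb between Mepe and Spp1. The 250 bases before the start of 3 of these neighbours are shown, from RefSeq on GRCm38.p6 and read on the plus strand, because the same short motifs occur in each while their levels differed widely. They cover chr5:104434861-104435110 for Spp1, chr5:104202367-104202616 for Dmp1 and chr5:104325079-104325328 for Mepe. Capitals mark the letters of the RUNX motif, ACCACA or its reverse complement TGTGGT, and of the CCAAT box, CCAAT or its reverse complement ATTGG.
Spp1: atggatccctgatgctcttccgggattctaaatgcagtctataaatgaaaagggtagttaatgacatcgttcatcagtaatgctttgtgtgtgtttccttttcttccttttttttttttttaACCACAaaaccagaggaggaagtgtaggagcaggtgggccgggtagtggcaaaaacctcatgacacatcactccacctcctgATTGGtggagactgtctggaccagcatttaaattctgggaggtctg
Dmp1: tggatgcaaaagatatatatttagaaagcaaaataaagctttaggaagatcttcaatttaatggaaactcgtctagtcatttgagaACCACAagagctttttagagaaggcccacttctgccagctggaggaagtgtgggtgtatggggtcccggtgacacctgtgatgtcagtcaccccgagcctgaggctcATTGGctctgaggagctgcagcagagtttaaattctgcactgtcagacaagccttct
Mepe: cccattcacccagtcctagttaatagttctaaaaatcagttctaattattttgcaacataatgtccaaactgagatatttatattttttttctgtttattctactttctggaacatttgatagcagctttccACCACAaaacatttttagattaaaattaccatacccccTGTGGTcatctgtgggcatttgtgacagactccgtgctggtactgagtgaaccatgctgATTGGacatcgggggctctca

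The Spp1 window held 1 RUNX match 128 to 123 bases and 1 ATTGG 46 to 42 bases before the start. The Dmp1 window held the same pair at 164 to 159 and 57 to 53 bases, and the Mepe window held RUNX matches at 118 to 113 and, as TGTGGT, at 80 to 75 bases and an ATTGG at 21 to 17 bases. The window of Ibsp held an ATTGG and no RUNX match, that of Runx2 held 1 RUNX match, and those of Alpl, Sparc, Cd44 and Postn held neither. The RefSeq starts of Ibsp, Runx2 and Sparc lie 116, 170 and 3103 bases from the GENCODE starts of those genes, so their windows do not lie at the annotated gene ends. No member's window held the AP-1 motif TGANTCA, searched on both strands. Of all 32851 windows of this length before RefSeq starts, 14.0% held the RUNX motif, 33.8% the CCAAT box, 4.54% both and 6.75% the AP-1 motif. These matches describe letters and are not evidence of binding, and no overlap among the motifs occurs in the printed windows.

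Spp1, which encodes the secreted integrin and CD44 ligand osteopontin, was found in sarcoma cells and stroma of every tumour and in 55 of 8107 muscle cells. Sarcoma cells held 466, 158, 27.3 and 935 CPM in sarcomas 1 to 4, a mean of 396 ± 403 (SD, n = 4). Stroma held 1791, 13362, 845 and 2564, a mean of 4641 ± 5857 (SD, n = 4), or 5333 ± 6970 without sarcoma 4 (n = 3). Muscle cells held 4.55 (95% Poisson interval 4.04 to 5.11, which covers counting error only), from 288 UMIs. All 8 tumour values lay above the muscle value, and within each sarcoma the stroma lay above the sarcoma cells, by 3.85-, 84.5-, 31.0- and 2.74-fold. The order of libraries differed between the classes, since sarcoma 4 was highest among sarcoma cells and sarcoma 2 among stroma, while sarcoma 3 was lowest in both. Of all genes with values, 9.61% stood at least 2-fold above muscle in the sarcoma cells of all 4 libraries, and 4.23% did so in stroma. These counts take in every gene at 0 in muscle, also where a tumour library held 0. Among the members with UMIs in muscle, Spp1 was the 1 member in either count. Ibsp, at 0 in muscle, entered both counts by that rule, and Mepe entered the count of sarcoma cells. Of all genes, 12.7% stood lower in sarcoma cells than in stroma in all 4 libraries, among the members Spp1 and Sparc, and 18.5% stood higher in all 4, with 0 of the members.

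**Figure D1:**
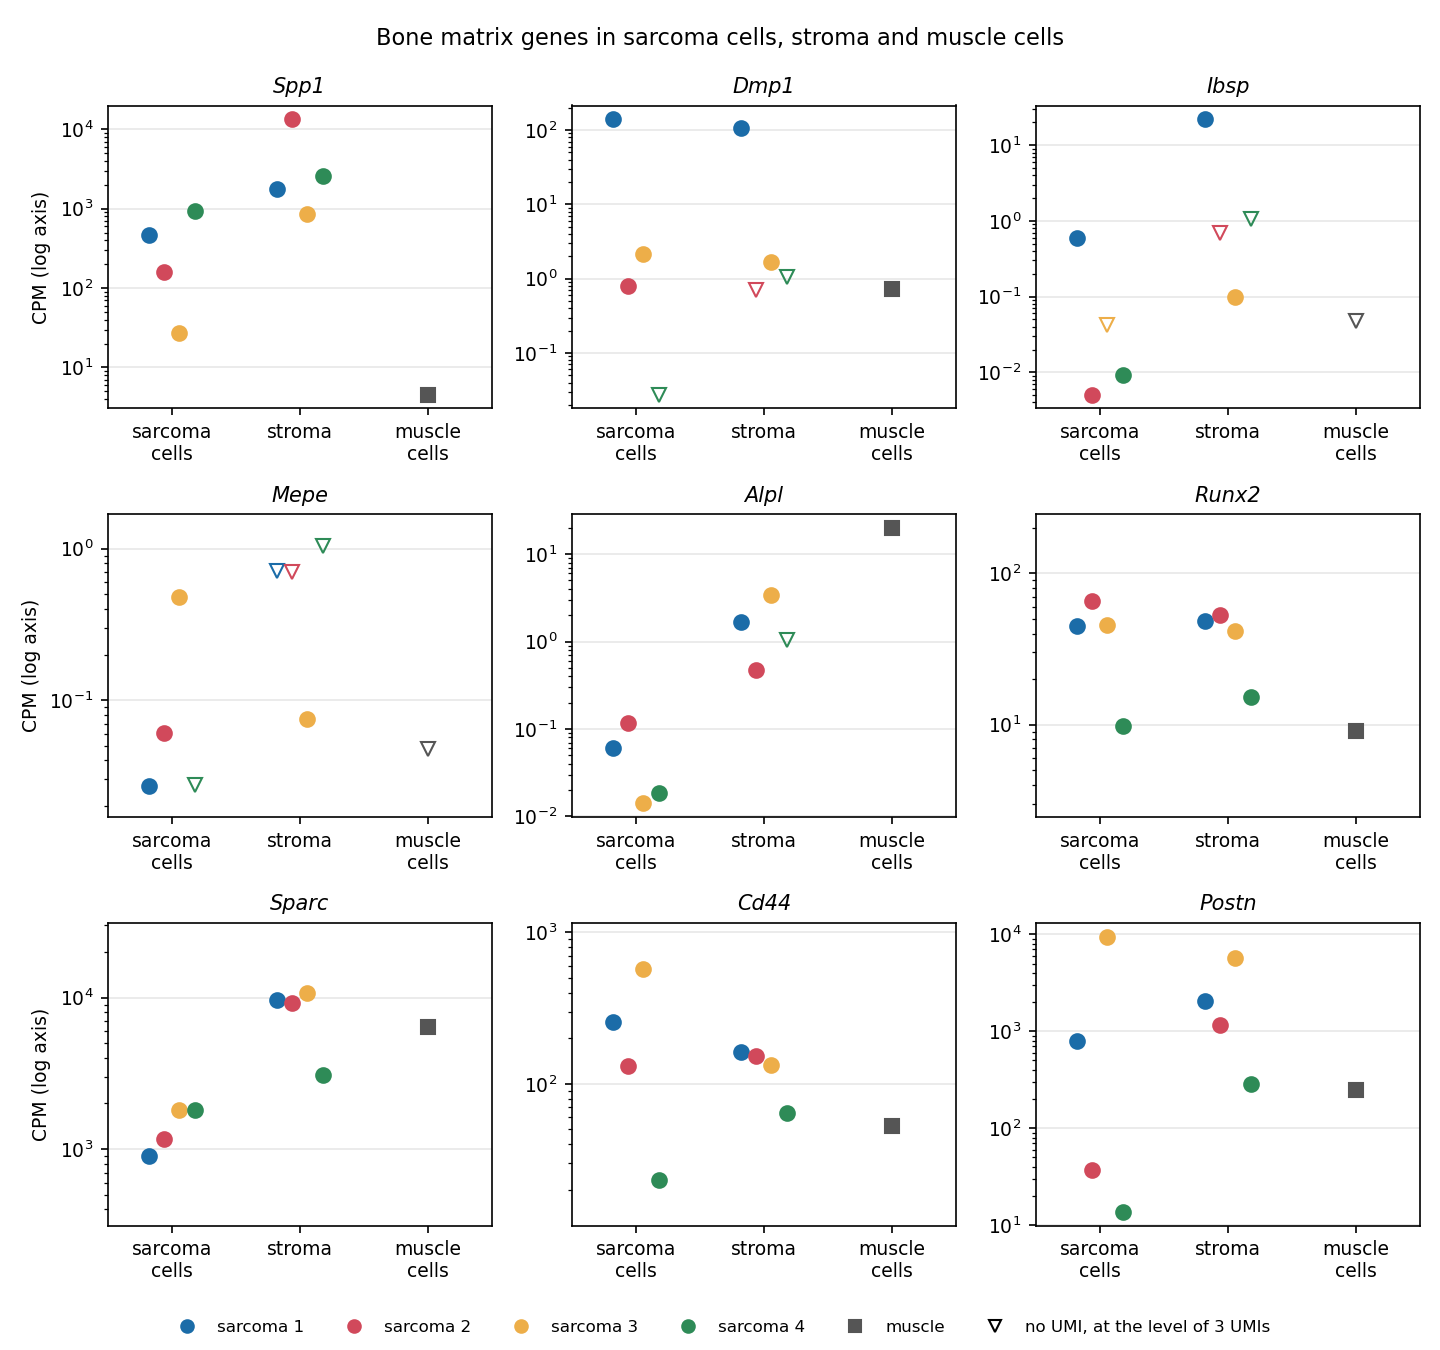
Level of each of the 9 members in CPM (log axis) in sarcoma cells, stroma and muscle cells, with 1 point per library; open triangles mark libraries with no UMI, drawn at the level 3 UMIs would give. Spp1 lies at 27.3 to 935 in sarcoma cells, 845 to 13362 in stroma and 4.55 in muscle, whereas Alpl is highest in muscle at 19.9 and Dmp1 passes 100 only in sarcoma 1.

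The difference between sarcoma cells and stroma was tested on summed UMIs of both classes in the same 4 libraries. By edgeR's quasi-likelihood test with library as a block, Spp1 differed by a log2 of -3.64 ± 1.16 (SE), adjusted p = 0.151, and was not called. Without sarcoma 4 the difference was -4.56 ± 1.16, adjusted p = 0.0868, and with DESeq2 on all 4 libraries it was -3.66, adjusted p = 0.000694, so the call depended on the tool although the direction did not. In this comparison 171 of 14569 genes passed, 34 higher and 137 lower in sarcoma cells, which is 1.17% of genes, and 0 of the 6 members tested were among them (3914 genes passed at an unadjusted p under 0.05). Ibsp, Mepe and Alpl had too few UMIs to be tested, although Alpl could be without sarcoma 4, at -4.71 ± 1.35, adjusted p = 0.104. Without sarcoma 1, 2, 3 or 4 the number of genes called was 0, 0, 2 and 1567, so that each library decided this number.

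Stroma was also set against muscle cells. No gene passed in the edgeR fit of 4 stroma sums against the 1 muscle sum (0 of 12855 genes, 0%; 1221 at an unadjusted p under 0.05; DESeq2 called 557). Because Spp1 was chosen partly for standing above this muscle library, its difference is given with no test. It was a log2 of 10.08 ± 2.80 (SE), and 10.32 without sarcoma 4, when 176 genes were called, 0.488% of genes as higher and 0.673% as lower. Against the 175 muscle cells of the stroma gate, which also held the tendon genes Tnmd at 3203 and Scx at 834 CPM, the difference was 6.997. In those muscle cells Spp1 stood at 38.7 CPM, from 82 UMIs in 8 cells.

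Spp1 was concentrated in a minority of cells in both classes. Among sarcoma cells, 25.2%, 26.8%, 13.7% and 42.5% held a Spp1 UMI in sarcomas 1 to 4, and the median sarcoma cell held 0. Cells with 10 UMIs or more numbered 272 (5.29%), 110 (1.48%), 17 (0.596%) and 480 (14.7%). The 10% of sarcoma cells richest in Spp1 held 98.9%, 96.0%, 94.5% and 94.9% of its UMIs, and the highest single cells held 3186, 2619, 298 and 6161 UMIs. In stroma, cells with 10 UMIs or more numbered 44 (23.9%), 101 (64.7%), 229 (13.2%) and 17 (21.5%), and the richest 10% held 85.7%, 58.7%, 94.9% and 91.7%. Stroma of sarcoma 2 was thus the class in which Spp1 was spread most widely. In muscle 7 of 8107 cells (0.0863%) held 10 UMIs or more, and the highest held 58.

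**Figure D2:**
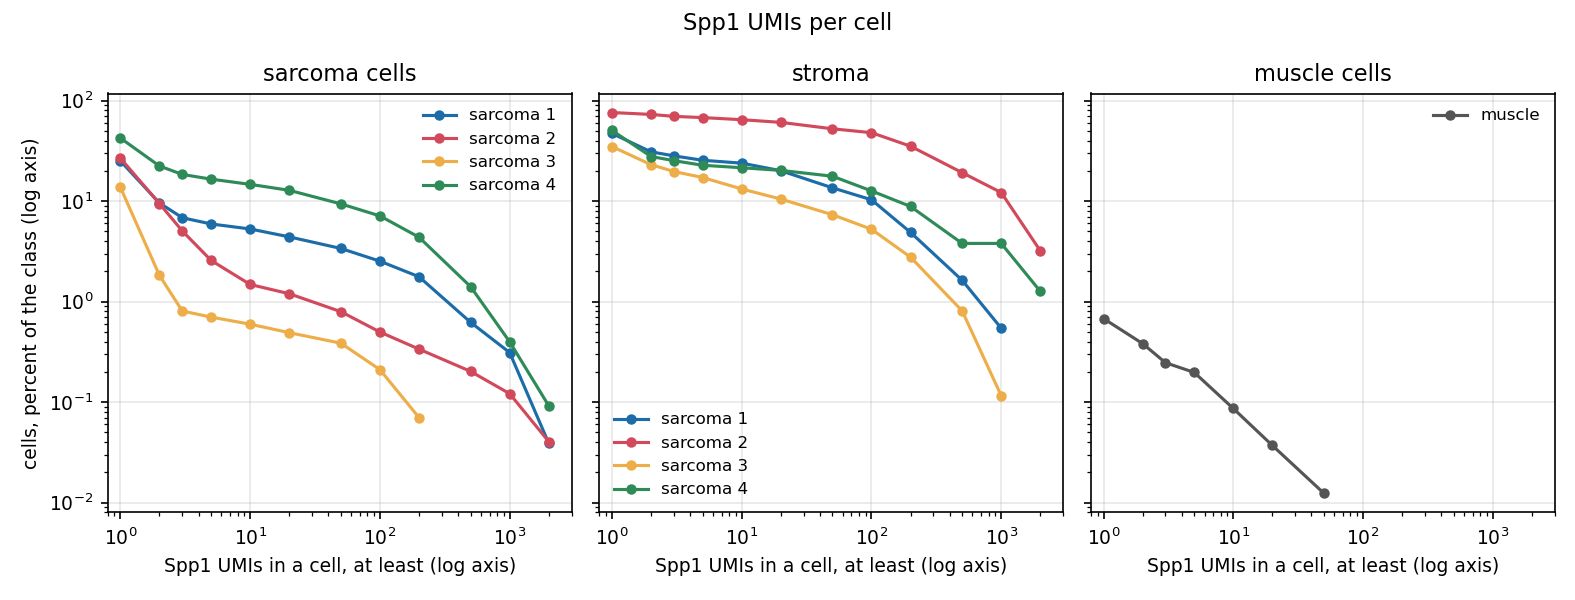
Percent of cells that held at least a given number of Spp1 UMIs (both axes log), in panels for sarcoma cells, stroma and muscle cells, with 1 line per library. The share with 10 UMIs or more is 0.596% to 14.7% in sarcoma cells, 13.2% to 64.7% in stroma and 0.0863% in muscle.

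When every cell was thinned to 2000 UMIs to make depths equal, 6.66%, 8.28%, 2.04% and 17.4% of sarcoma cells, 28.4%, 65.4%, 16.3% and 22.8% of stroma cells and 0.298% of muscle cells held a Spp1 UMI. Free RNA in the droplets sets a floor to such shares. Mural cells of the same sarcomas were set beside them, although Spp1 made by mural cells was not told apart from free RNA. They held a Spp1 UMI in 6.57%, 3.23% and 2.62% of 198, 124 and 229 thinned cells of sarcomas 1 to 3 and in 8 of 32 in sarcoma 4. Their median depths before thinning were 12372, 11754, 10613 and 15270 UMIs. In muscle 0.312% of mural cells held a Spp1 UMI. In sarcoma 3 a Spp1 UMI was no more frequent in sarcoma cells than in mural cells. There 17 sarcoma cells (0.596%) and 2 mural cells (0.844%) held 10 UMIs or more. The part of free RNA in this share was not tested. In sarcoma 1 the shares of sarcoma and mural cells were close at equal depth, but 5.29% of sarcoma cells and 0.498% of mural cells (1 cell) held 10 UMIs or more. The share in sarcoma cells of sarcoma 2 and the stroma shares of sarcomas 1 to 3 lay above the mural shares. In sarcoma 4 mural cells could not serve for this comparison. Its 34 mural cells held 4832 CPM of Spp1 and only 2815 CPM of the 6 mural markers, against 10221 to 12062 CPM of these markers in mural cells of sarcomas 1 to 3.

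Stroma held a larger share of a library's Spp1 than of its cells in all 4 sarcomas, while the class that held most of the Spp1 differed between tumours. Sarcoma cells made up 69.2%, 90.5%, 41.0% and 47.8% of kept cells and held 59.2%, 32.5%, 4.74% and 55.9% of Spp1 UMIs. Stroma made up 2.48%, 1.90%, 24.9% and 1.16% of kept cells and held 6.56%, 59.6%, 82.7% and 4.04% of Spp1 UMIs. Most Spp1 of sarcomas 2 and 3 thus lay in stroma and most of that of sarcomas 1 and 4 in sarcoma cells. Cells of no gate held 16.5% in sarcoma 1 and 20.6% in sarcoma 4, and cells of the progenitor gate a further 15.8% in sarcoma 1. Cells that met both gates, left out of both classes, held 0.0840%, 2.34%, 0.372% and 8.70% in sarcomas 1 to 4. In sarcoma 4 this was more than the 4.04% of its stroma.

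**Figure D3:**
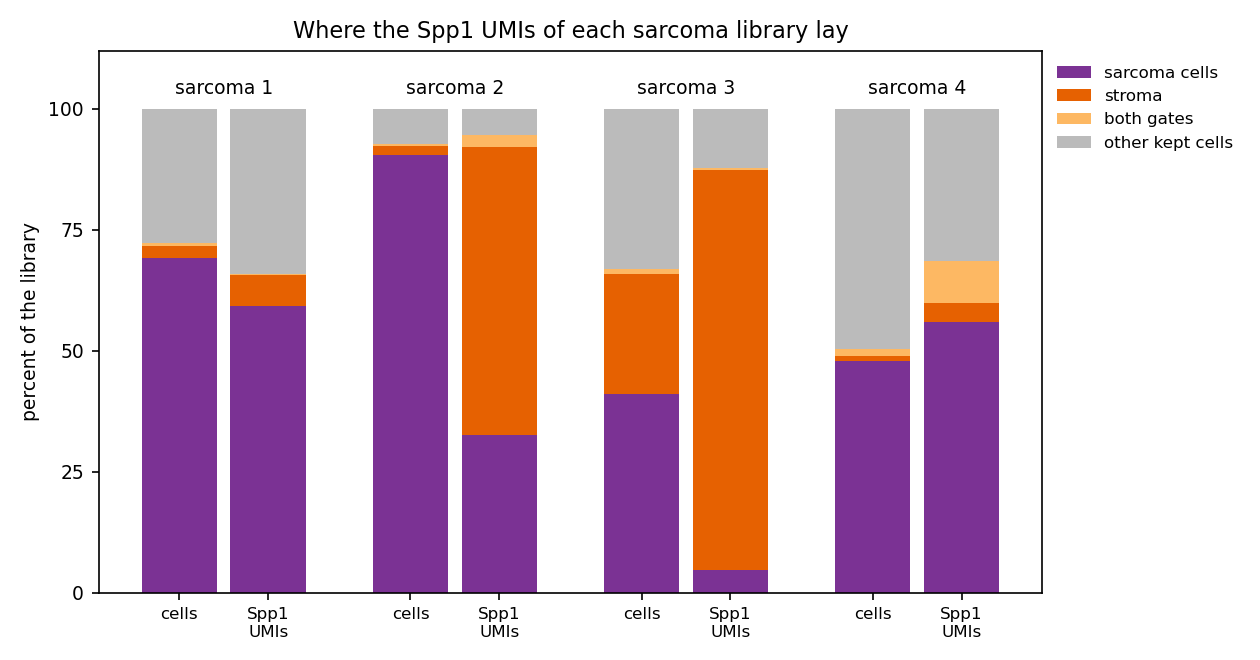
Stacked bars of the percent of kept cells and the percent of Spp1 UMIs in each sarcoma library that belong to sarcoma cells, stroma, cells of both gates and all other kept cells. Stroma is 1.90% of cells and 59.6% of Spp1 UMIs in sarcoma 2, and 1.16% of cells and 4.04% of Spp1 UMIs in sarcoma 4.

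Values near the gates show how the classes depend on them. Sarcoma cells with exactly 2 Gchfr UMIs held 748, 39.1, 86.9 and 845 Spp1 CPM in sarcomas 1 to 4, and cells just outside, with 1 Gchfr UMI, held 463, 370, 68.6 and 617. Stroma cells with exactly 4 UMIs of the stroma genes held 88.7, 12050, 281 and 1143, and cells just outside, with 3 UMIs, held 1180, 1074, 309 and 2398. Cells on both sides of each gate thus held Spp1, and the stroma edge of sarcoma 2 rested on 5 cells inside and 19 outside.

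Markers of macrophages, a known source of osteopontin, were low beside those of fibroblasts in both classes. The 8 macrophage and haematopoietic markers summed to 9.65, 9.65, 17.0 and 19.5 CPM in sarcoma cells, 25.8, 92.7, 66.0 and 14.6 in stroma and 4.08 in muscle, with all 8 detected in sarcoma cells of sarcomas 1 to 3 and Adgre1 and Ptprc at 0 in those of sarcoma 4. In stroma Adgre1 was at 0 in sarcomas 1, 2 and 4, and Cd53, at 16.1, 79.1, 37.5 and 2.09, made up most of the sum in sarcomas 1 to 3. In stroma cells with 10 or more Spp1 UMIs the sum was 53.3, 107 and 92.8 in sarcomas 1 to 3, against 15.2, 28.5 and 57.8 in stroma cells without Spp1, while Smarcb1 stood at 43.4, 69.9 and 63.0. Of stroma cells with 10 or more Spp1 UMIs, 15.9%, 38.6% and 31.4% held at least 3 UMIs of these markers in sarcomas 1 to 3. In stroma cells without Spp1 the shares were 3.09%, 8.11% and 14.5%. Median depth was 21622, 28963 and 28106 UMIs in the first and 19896, 21571 and 20333 in the second. The part of macrophages in the Spp1 level was not tested.

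Dmp1, a matrix phosphoprotein that in bone marks osteocytes, was high in 1 tumour. Sarcoma cells held 140, 0.802, 2.17 and 0 CPM in sarcomas 1 to 4, stroma held 106, 0, 1.67 and 0, and muscle held 0.727 from 46 UMIs. Sarcoma 1 stood apart in both classes. In the edgeR fits Dmp1 differed by a log2 of 0.63 ± 0.51 between sarcoma cells and stroma, adjusted p = 0.464, and by 5.28 between stroma and muscle. Without sarcoma 4 these were 0.60, adjusted p = 0.423, and 5.70, and without sarcoma 1 the second was 0.02. Within sarcoma 1, 879 sarcoma cells held a Dmp1 UMI and 374 (7.27%) held 10 or more, with a maximum of 1045, and the richest 10% held 98.1% of the UMIs. Dmp1 was thus as concentrated as Spp1, and in partly overlapping cells. Of the 272 sarcoma cells with 10 or more Spp1 UMIs, 57 also held 10 or more Dmp1 UMIs, which is 21.0% of those 272 cells and 15.2% of the 374 Dmp1 cells, beside 7.27% and 5.29% of all sarcoma cells of that library. At 2000 UMIs a cell, Dmp1 was found in 52 of 341 Spp1-positive sarcoma cells (15.2%) and in 322 of 4781 Spp1-negative ones (6.73%), an odds ratio of 2.49, and in the stroma of sarcoma 1 the odds ratio was 0.615. Dmp1 was not confined to the sarcoma gate of sarcoma 1. There 162 of 1066 progenitor-gated cells (15.2%) and 120 of 756 cells of no gate (15.9%) held 10 or more Dmp1 UMIs. At the edge of the gate Dmp1 stood at 385 CPM in cells with 2 Gchfr UMIs and at 329 in those with 1, just outside. Mural cells of sarcoma 1 held Dmp1 in 4.55% of thinned cells. In sarcomas 2 and 3 mural cells held more Dmp1 than sarcoma cells, so mural cells give no floor for this gene. The part of free RNA in the single UMIs was not tested.

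Ibsp and Mepe, the other bone phosphoproteins of the cluster, were nearly absent. Ibsp, which nucleates mineral, gave 88, 1, 0 and 1 UMIs in the sarcoma cells of sarcomas 1 to 4, 93, 0, 4 and 0 in stroma, and 0 in muscle. In the stroma of sarcoma 1 these UMIs lay in 3 cells, of which 1 held 86, and made 22.0 CPM, while the 88 UMIs of the sarcoma cells lay in 11 cells and made 0.600. Mepe, an inhibitor of mineralisation made by osteocytes, gave 4, 12, 34 and 0 UMIs in sarcoma cells, 0, 0, 3 and 0 in stroma and 0 in muscle, where a count of 0 allows up to 0.0474 CPM for either gene. Its highest level, 0.479, was in the sarcoma cells of sarcoma 3, the library lowest in Spp1. Dspp, the dentin gene next to Dmp1, reached at most 0.236 CPM. Pkd2, the neighbour on the other side of Spp1 and the gene of a calcium channel of cilia, stood at 39.7, 74.3, 175 and 63.7 in sarcoma cells, 71.4, 102.9, 122 and 87.4 in stroma and 101 in muscle. The muscle value of Pkd2 lay within the range of the sarcoma cells and within that of the stroma.

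Alpl, the phosphatase of mineralising cells, ran the other way. Sarcoma cells held 0.0614, 0.117, 0.0141 and 0.0183 CPM, from 9, 23, 1 and 2 UMIs. Stroma held 1.65, 0.468, 3.37 and 0, from 7, 2, 135 and 0 UMIs, and muscle held 19.9 from 1257 UMIs in 866 cells (10.7%). Muscle was highest, all sarcoma values were lowest, and the stroma of sarcoma 4, with no UMI and a limit of 1.04, could not be placed. Within muscle Alpl stood at 21.8 in progenitor-gated cells and at 6.13 in cells of the stroma gate. Stroma differed from muscle by a log2 of -3.60 ± 1.24 in the edgeR fit, and by -3.18 without sarcoma 4. Alpl stood at least 2-fold below muscle in the sarcoma cells of all 4 libraries, as 13.2% of all genes did, and so did Sparc. In stroma 8.58% of genes stood that far below muscle in all 4 libraries, and Alpl was the 1 member among them.

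Runx2, which directs osteoblast differentiation, was detected in every class. Sarcoma cells held 45.2, 66.0, 45.7 and 9.83 CPM, a mean of 41.7 ± 23.3 (SD, n = 4), stroma held 48.5, 53.1, 41.6 and 15.3, a mean of 39.6 ± 16.9 (SD, n = 4), or 47.7 ± 5.82 without sarcoma 4, and muscle held 9.12. The values of sarcoma cells and stroma overlapped and sarcoma 4 was lowest in both. Their edgeR difference was -0.05 ± 0.16, adjusted p = 0.856, and 0.10 ± 0.14, adjusted p = 0.650, without sarcoma 4. Stroma differed from muscle by a log2 of 2.20 ± 0.81 with all 4 libraries and by 2.49 ± 0.32 without sarcoma 4. Against the muscle cells of the stroma gate, in which Runx2 stood at 23.1, the edgeR difference was 0.86. Among sarcoma cells, sarcoma 4 was highest in Spp1 and lowest in Runx2 and Dmp1. Its count of 0 for Mepe could not be placed below the 4 UMIs of sarcoma 1.

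Sparc, a calcium- and collagen-binding protein of bone and of remodelling tissue, was found in most cells of every class. Sarcoma cells held 896, 1173, 1807 and 1798 CPM, a mean of 1419 ± 458 (SD, n = 4). Stroma held 9579, 9163, 10780 and 3082, a mean of 8151 ± 3448 (SD, n = 4), or 9840.5 ± 839 without sarcoma 4, and muscle held 6419. The ranges of sarcoma cells and stroma did not overlap, and stroma was 10.7-, 7.81-, 5.96- and 1.71-fold higher within each library. In the edgeR fit the difference of Sparc was -2.47 ± 0.54, adjusted p = 0.108, with all 4 libraries. Without sarcoma 4 it was -3.00 ± 0.25, adjusted p = 0.0196, and Sparc was then among 1567 genes called (6.53% of genes as lower and 3.98% as higher in sarcoma cells). Between stroma and muscle the edgeR difference was 0.42, and 0.72 without sarcoma 4. Within muscle, Sparc stood at 15452 in cells of the stroma gate, 14037 in tenocyte-gated, 5842 in progenitor-gated and 5408 in mural cells.

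Postn, a fasciclin-domain protein of periosteum and wound stroma, varied widely among tumours. Sarcoma cells held 793, 37.4, 9440 and 13.6 CPM, a mean of 2571 ± 4593 (SD, n = 4). Stroma held 2054, 1171, 5708 and 282, a mean of 2304 ± 2382 (SD, n = 4), or 2977 ± 2405 without sarcoma 4, and muscle held 250. Sarcoma 3 was highest in both classes and sarcoma 4 lowest, the reverse of their order for Spp1 in sarcoma cells. Sarcoma cells held 0.386, 0.0320, 1.65 and 0.0482 of the stroma level, so sarcoma 3 went the other way from the rest. The edgeR difference was -2.57 ± 1.24, adjusted p = 0.244, and -1.73 ± 1.35, adjusted p = 0.427, without sarcoma 4. Between stroma and muscle it was 3.28 ± 1.84, and 3.66 ± 1.10 without sarcoma 4.

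Cd44, the receptor among the members, held 257, 132, 578 and 23.1 CPM in sarcoma cells, a mean of 247 ± 240 (SD, n = 4), 162, 153, 134 and 64.1 in stroma, a mean of 128 ± 44.2 (SD, n = 4), or 149 ± 14.3 without sarcoma 4, and 52.9 in muscle. Sarcoma 4, richest in Spp1 among sarcoma cells, was lowest in Cd44, and sarcoma 3, poorest in Spp1, was highest. Sarcoma cells and stroma overlapped, and the edgeR difference was 0.28 ± 0.59, adjusted p = 0.783, and 0.83 ± 0.48, adjusted p = 0.301, without sarcoma 4. Stroma was above muscle in all 4 libraries, with an edgeR log2 difference of 1.35 ± 0.63, and 1.60 without sarcoma 4. At 2000 UMIs a cell, Cd44 was found in 37.4%, 19.2%, 56.5% and 3.44% of sarcoma cells, 25.7%, 26.9%, 17.97% and 7.59% of stroma cells and 8.88% of muscle cells.

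Whether members were found in the same cells as Spp1 was examined at 2000 UMIs a cell, where 341, 602, 58 and 565 sarcoma cells of sarcomas 1 to 4 held a Spp1 UMI. Runx2, Sparc, Cd44 and Postn were frequent enough to be compared in all 4. For Runx2 the odds ratios with Spp1 were 0.919, 0.636, 1.11 and 1.33, for Sparc 0.822, 0.828, 1.56 and 1.53, and for Cd44 0.762, 0.847, 0.881 and 1.04. Each of these lay on both sides of 1, and 0 of the 4 members had an odds ratio above 1 in every library, as 2.86% of all 7737 genes compared did, or below 1 in every library, as 11.4% did. The median odds ratio over those genes was 0.968, 0.878, 0.950 and 0.954.

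Postn differed most between tumours. It was found in 37.2% of Spp1-positive and 44.8% of Spp1-negative sarcoma cells of sarcoma 1, in 6.98% and 3.37% in sarcoma 2, in all 58 and 97.7% in sarcoma 3, and in 4.42% and 0.930% in sarcoma 4. The odds ratios were 0.732 in sarcoma 1, 2.15 in sarcoma 2 and 4.93 in sarcoma 4, with no finite value in sarcoma 3. When cells with 3 Spp1 UMIs or more were set against those with 0, the share with Postn in sarcoma 2 was 1 of 82 (1.22%) against 3.37%, an odds ratio of 0.354, so the direction in sarcoma 2 depended on the number of Spp1 UMIs asked for. In sarcoma 4 the odds ratio was then 6.47 and in sarcoma 1 0.642. At full depth, Postn stood at 569, 32.1 and 38.9 CPM in sarcoma cells with 10 or more Spp1 UMIs of sarcomas 1, 2 and 4, and at 827, 39.3 and 8.30 CPM in those without Spp1. These ratios describe detection and not co-expression.

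**Figure D4:**
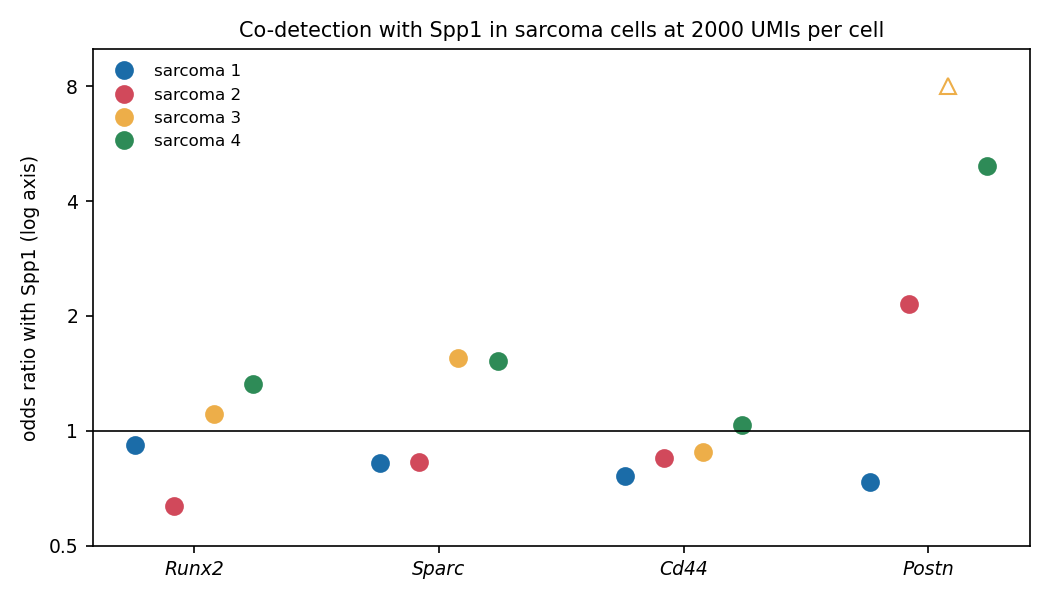
Odds ratio (log axis) for finding Runx2, Sparc, Cd44 or Postn in a sarcoma cell with a Spp1 UMI against one without, at 2000 UMIs a cell, with 1 point per library; the open triangle stands for Postn in sarcoma 3, where all 58 Spp1-positive cells held it. No member lies above 1 in all 4 libraries, and Postn runs from 0.732 in sarcoma 1 to 4.93 in sarcoma 4.

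In stroma, Runx2 was found more often among Spp1-positive cells in the 3 libraries with enough cells. It was found in 10 of 52 Spp1-positive and 10 of 131 Spp1-negative cells of sarcoma 1 (19.2% and 7.63%, odds ratio 2.88), in 7 of 102 and 2 of 54 of sarcoma 2 (6.86% and 3.70%, 1.92), and in 37 of 282 and 106 of 1449 of sarcoma 3 (13.1% and 7.32%, 1.91). An odds ratio above 1 in all 3 was seen for 13.7% of 7716 genes, so this is a common pattern, and sarcoma 4 had 18 Spp1-positive stroma cells, too few to compare. At full depth, Runx2 stood at 74.999, 58.1 and 63.4 CPM in stroma cells with 10 or more Spp1 UMIs and at 39.0, 29.8 and 35.7 in those without Spp1, while Postn stood at 1079, 864 and 4533 in the first and 2779, 2110 and 6028 in the second. In the sarcoma cells of sarcoma 1, those with 10 or more Spp1 UMIs held 406 CPM of Dmp1 and those without Spp1 held 119.

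Genes that act with the members were grouped into lists by role, and the 3 of each with the highest mean over all 9 sums are given. Among receptors of osteopontin these were Itgb1, the common integrin chain, at 540 ± 15.8 CPM in sarcoma cells and 515 ± 111.8 in stroma, Itgb5, at 209 ± 172 and 187 ± 111, and Cd44. Of 9 receptors tested 1 was higher and 0 lower in sarcoma cells in edgeR, beside 0.233% and 0.94% of all genes, and the median log2 difference was 0.10, beside 0.07 over all genes. The receptor that passed was Itgb3, the beta chain of the alpha v beta 3 integrin, at 91.2, 212, 86.8 and 0.119 in sarcoma cells, 31.4, 35.3, 12.7 and 0 in stroma and 17.5 in muscle, with a difference of 2.29 ± 0.27, adjusted p = 0.0437. The value of sarcoma 4 was close to 0 in both classes. Its partner Itgav, at a log2 difference of 1.03, adjusted p = 0.149, did not pass. Without sarcoma 4, 3 receptors were higher and 1 lower, with Itgb3 at 2.29, adjusted p = 0.0307, Itgav at 1.37, adjusted p = 0.0477, Itga8 at 2.64, adjusted p = 0.0390, and Itga9 at -1.77, adjusted p = 0.0306 (edgeR). In that fit 3.98% of all genes were called higher and 6.53% lower. These shares stand beside every list count of sarcoma cells against stroma given below without sarcoma 4.

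Among 10 osteoblast and osteocyte genes tested, 0 were higher and 1 lower, with a median of -0.27. The gene that fell was Dlx5, a homeobox gene of osteoblast precursors, at 0.252, 0.0203, 0.282 and 0 in sarcoma cells, against 7.33, 1.87, 13.0 and 0.696 in stroma and 3.86 in muscle, with a difference of -5.72 ± 0.62, adjusted p = 0.0348 in edgeR. Without sarcoma 4, the ligand Bmp2 was higher, at 2.04, adjusted p = 0.0193 in edgeR, and 2 genes were lower (Dlx5 and Col1a2, at -5.51 and -2.29, adjusted p = 0.0199 and 0.0380). The list was led by the type I collagen chains Col1a2, at 2372 ± 1428 in sarcoma cells and 8902 ± 4360 in stroma, and Col1a1, at 720 ± 768 and 8754 ± 5146, and Pdpn, a mucin of osteocytes and activated fibroblasts, at 219.9 ± 191 and 145 ± 115. Their edgeR adjusted p-values were 0.115, 0.194 and 0.888. Of 9 genes of mineral and phosphate handling 0 passed, with a median of -0.32, and without sarcoma 4 Ank was higher, at 2.01, adjusted p = 0.0353 in edgeR. They were led by the calcification inhibitor Mgp, at 3899 ± 3094 and 3235 ± 1809, by the pyrophosphate transporter Ank, at 299 ± 148 and 111 ± 58.3, and by Enpp1, which makes pyrophosphate, at 182 ± 267 and 163 ± 216.

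In the SPARC family 0 of 7 genes passed, with a median of 0.31, and without sarcoma 4 Smoc1 and Smoc2 were lower, at -7.08 and -8.27, adjusted p = 0.0253 and 0.0388 in edgeR, with a median of -0.50. Fstl1 stood at 740 ± 424 in sarcoma cells and 2124 ± 542 in stroma, Smoc2 at 5.47 ± 8.38 and 437 ± 353, and Sparcl1 at 362 ± 384 and 153 ± 58.9. Among 10 binding partners of periostin, 1 was higher (Itgb3) and 1 lower, with a median of -2.73. The one that fell was Col6a1, a chain of pericellular type VI collagen, at 99.8, 80.1, 252 and 65.8 in sarcoma cells, against 555, 645, 1044 and 198 in stroma, with a difference of -2.27 ± 0.28, adjusted p = 0.0455 in edgeR. Fibronectin (Fn1), at 183 ± 287 and 3893 ± 2285, and the matrix glycoprotein Fbln1, at 16.7 ± 17.8 and 448 ± 332, were with Col6a1 the 3 highest over all sums and had edgeR adjusted p-values of 0.136 and 0.0827. In sarcoma cells alone Fbln1 was the lowest of the list. Without sarcoma 4, 2 partners were higher (Itgb3 and Itgav) and 4 lower, namely Col6a1 (-2.53), Fn1 (-7.08), Fbln1 (-5.40) and the procollagen protease Bmp1 (-3.72), with edgeR adjusted p = 0.0203, 0.0204, 0.0426 and 0.0166.

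Of 5 proteases that can cleave osteopontin or lie in the same matrix 0 passed, with a median of -4.62, and without sarcoma 4 Ctsd was lower, at -1.34, adjusted p = 0.0272 in edgeR, with a median of -2.34. Mmp3 stood at 10.2 ± 11.0 in sarcoma cells and 1300 ± 1344 in stroma, Ctsd at 147 ± 54.1 and 292 ± 111, and Adamts5 at 12.8 ± 14.4 and 262 ± 204. Of 9 partners and targets of RUNX factors 0 passed, with a median of 0.04, and they were led by Twist1, at 361 ± 276 and 236 ± 52.6, Runx1, at 57.1 ± 26.6 and 326 ± 164, and Wwtr1, at 175 ± 75.6 and 156 ± 86.8. Without sarcoma 4, Runx1, Runx3 and the collagenase Mmp13 were lower, at -2.98, -3.52 and -7.45, adjusted p = 0.0337, 0.0330 and 0.0471 in edgeR. Of 6 genes of osteoclast signalling 0 passed, with a median of -0.45. They were led by the macrophage growth factors Csf1, at 294 ± 221 and 109 ± 71.1, and Il34, at 76.0 ± 61.0 and 22.7 ± 14.5, and by the osteoclast factor Tnfsf11, at 38.2 ± 71.3 and 66.2 ± 29.5, which reached 145 in the sarcoma cells of sarcoma 4 and 1.30 to 3.85 in those of the other tumours. Without sarcoma 4, Il34 was higher, at 1.66, and Tnfsf11 and Csf1r lower, at -4.48 and -3.63, adjusted p = 0.0368, 0.0387 and 0.0462 in edgeR. Of 5 genes of the chromosome 5 cluster tested 0 passed, with a median of -0.30, and 0 passed without sarcoma 4. Errors in these lists are SDs over 4 libraries. Between stroma and muscle no list gene passed in edgeR with all 4 libraries, and without sarcoma 4 Tnc, Col12a1, Mmp9, Runx1, Mmp13 and Tnfsf11 were higher, at 3.66, 2.79, 5.31, 4.27, 11.31 and 6.79. Beside them, 0.488% of all genes were called higher in that fit. No gene at all was called without sarcoma 1 or without sarcoma 2, so Itgb3, Dlx5 and Col6a1 were not called there either.

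The genes whose level followed that of Spp1 most closely over the 9 sums (sarcoma cells and stroma of 4 libraries and muscle) were Mrpl43, Pdia4, 1110008F13Rik, Synpo and Nt5c, with Pearson correlations of 0.948, 0.919, 0.911, 0.894 and 0.871 on a log2 scale among 4950 genes. The sums share libraries, and the levels of Mrpl43 spanned only 58.5 to 79.8 CPM. Among the members the correlations with Spp1 were 0.275 for Runx2, 0.265 for Sparc, 0.0392 for Dmp1, 0.0102 for Postn and -0.103 for Cd44. Across sarcoma cells, genes were ranked by the lowest of their 4 correlations with Spp1, and the highest of these was 0.0211 (Rps21) among 3537 genes, followed by Dpm3, Dnajb12, Maged2 and Manbal. Within single libraries some members had larger, still weak values, with 0.122 for Postn and 0.119 for Sparc in sarcoma 4 and 0.0830 for Dmp1 in sarcoma 1. In counts this sparse such values are a description only.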

How the data were processed

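The authors deposited 1 raw UMI count matrix per library, with 28001 features. The file headers name Cell Ranger 6.0.1 as the counting software, and the submitters' processing notes name the mm10 build. The labels name a 3′ droplet kit. Barcodes under 500 detected genes or over 10% mitochondrial UMIs were dropped, and doublets were not removed. A class entered a fit with at least 20 cells in a library. UMIs were summed per class and library and tested with edgeR 4.0.16 (quasi-likelihood, TMM, filterByExpr, Benjamini-Hochberg over all genes tested, threshold 0.05, R 4.3.3), with DESeq2 1.42.0 as an alternative. In the fit of sarcoma cells against stroma, both sums of a pair come from the same library, which was the block. Intervals are exact 95% Poisson or binomial ones and cover counting error only, and a count of 0 allows up to 3 counts.

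Shares were compared after thinning each cell to 2000 UMIs, without the shallower cells. Of the sarcoma cells, 20, 149, 11 and 13 were too shallow in sarcomas 1 to 4, of the stroma cells 1, 0, 1 and 0, and of the muscle cells 384. Correlations over the 9 sums used log2 of CPM (UMIs scaled to the total of the same cells) plus 1 in genes reaching 50 CPM in some sum. Those across sarcoma cells used the natural log of 1 plus the UMIs of thinned cells, in genes in at least 5% of these cells in each library. Odds ratios cover genes in at least 1% of thinned cells of each library. Annotation was matched by gene ID to GENCODE and RefSeq tables for 27645 of 28001 features and all 9 members. Named genes are the 9 members, the 3 most abundant genes of each list, the 5 genes most like Spp1, and the neighbours of the cluster. Other list genes that passed with 4 libraries or without sarcoma 4, and Itgav, were named after their values were seen; 1 result is not reported here. Members and lists were chosen with earlier results of these data known. Tests were tried on simulated data. The alternatives covered scaling, filters, gates, cells kept, each library left out and the block.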

Additional observations from a re-analysis of the deposited data

Results flagged for a closer look

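In 8 of 18 groups of 4 libraries examined (9 members in 2 classes), 1 library stood far from the other 3. For normally distributed values, chance gives such a gap in about 1 group in 20. CPM values are skewed and both classes come from the same libraries, so the 8 groups cannot be set against that rate. Sarcoma 1 stood apart for Dmp1, at 140 CPM in sarcoma cells, where the next library had 2.17, and at 106 in stroma, where the next had 1.67. It also stood apart for Ibsp, at 0.600 in sarcoma cells (next 0.00916) and 22.0 in stroma (next 0.0999). Sarcoma 3 stood apart for Postn in sarcoma cells, at 9439.5 (next 793), and for Mepe, at 0.479 in sarcoma cells (next 0.0609) and 0.0750 in stroma, where the others had 0. Sarcoma 2 stood apart for Spp1 in stroma, at 13362 (next 2564). The Ibsp values rest on 88 UMIs in 11 sarcoma cells and 93 UMIs in stroma, of which a single cell held 86. The Mepe value in stroma is 3 UMIs, and a count of 0 in the smaller stroma of sarcomas 1, 2 and 4 allows up to 0.709, 0.702 and 1.04 CPM, so for Mepe in stroma no gap between libraries is shown. The cause of the other gaps was not tested.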

How the results depend on the processing

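The number of genes called between sarcoma cells and stroma (171) was 3218 with DESeq2, 104 with the gates applied at 2000 UMIs a cell, 1637 with stricter gates (sarcomas 1 to 3 only), 12 when cells of both gates were kept, and 1651 with stroma limited to cells with a Smarcb1 UMI (chosen after seeing the data; sarcomas 1 to 3 only). Leaving out 1 library gave 0 to 1567. With no replicate block, which drops the pairing of the classes by library, it was 38. Between stroma and muscle (0 genes called) the number was 557 with DESeq2, 515 with stricter gates, 2 against muscle cells of the stroma gate, 419 with Smarcb1-positive stroma and 0 to 176 with a library left out. Members with an odds ratio above 1 in every library numbered 0 to 1 with a library left out (1, Postn, without sarcoma 1). These member differences changed sign (log2): Dmp1 in sarcoma cells over stroma was -0.57 with gates at 2000 UMIs and -0.26 without the 5% deepest cells; Runx2 was 0.0796 with gates at 2000 UMIs, 0.0800 with stricter gates, 0.0634 with no replicate block, 0.18 with Smarcb1-positive stroma, and -0.17 to 0.10 with a library left out; Cd44 was -0.28 to 0.83 with a library left out; Postn was 0.0385 with no replicate block. Sparc in stroma over muscle was -0.85 against muscle cells of the stroma gate. Of those between sarcoma cells and stroma none passed the threshold, and the cause of the changes was not tested. Of all member differences under the alternatives, 81 of 96 between sarcoma cells and stroma kept their direction and side of the threshold. Between stroma and muscle 1 of 126 changed sign. All 72 levels in sarcoma cells stayed within 1 SD of the main mean, which is a loose bound because several SDs exceed the means. Within it, mean Dmp1 went from 35.6 to 0.990 CPM without sarcoma 1, and mean Postn from 2571 to 281 without sarcoma 3. With Smarcb1-positive stroma or stricter gates Sparc (-3.06 and -3.13, edgeR adjusted p = 0.0153 and 0.0163) passed between sarcoma cells and stroma. In these settings Runx2 differed by 2.43 and 2.54 between stroma and muscle. Depth limits Ibsp, Mepe and Alpl, and 79 stroma cells limit sarcoma 4.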

Other observations

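Other gated cells of the tumours held the members in a different order. Dmp1 stood at 107, 24.8, 30.1 and 7.08 CPM in mural cells of sarcomas 1 to 4 (from 316, 40, 93 and 5 UMIs), and at 3.47 in mural cells of muscle (12 UMIs), where progenitor-gated cells held 0.505. In sarcomas 2 and 3 the highest mural cells held 6 and 8 Dmp1 UMIs, and 19.4% and 22.8% of mural cells held a Dmp1 UMI. In the sarcoma cells of those 2 libraries Dmp1 stood at 0.802 and 2.17 CPM, and in sarcoma cells thinned to 2000 UMIs it was found in 0.0687% and 0.106%, against 7.26% and 7.42% of thinned mural cells. Sparc stood at 6870, 7967, 6128 and 3523 in mural cells of the sarcomas and 5408 in those of muscle. These levels were not tested.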
